A study of Mus musculus with 57 samples.

Results

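The genes described here are 10 inflammatory cytokines and molecules that hold cytokine signals back, followed in mouse liver after 7 hepatotoxic compounds: Il1a, Il1b, Il1rn, Il6, Il10, Il18bp, Tnf, Csf3, Socs3 and Nos2. They were chosen by name, as the rows whose Ensembl gene ID maps to one of these symbols, and all 10 were found among the 54307 gene rows of the table. The study sequenced the mRNA of 57 livers, 1 per mouse, to see how well cell types can be estimated from bulk tissue in models of liver injury. All mice were wild-type C57BL/6JJcl males, 6 weeks old and acclimatised for 1 week, fasted for 12 h and killed 24 h after dosing, with the liver perfused and the outer part of the left lateral lobe taken. By gavage, 4 mice received alpha-naphthyl isothiocyanate (ANIT), 6 acetaminophen (APAP), 7 4,4'-methylene dianiline (MDA) and 5 thioacetamide (TAA), against 13 mice given vehicle by the same route (Ctrl). By intraperitoneal injection, 7 mice received carbon tetrachloride (CCl4) and 4 galactosamine (GAL), against 2 mice given saline (CIP). By tail vein, 7 mice received concanavalin A (ConA), against 2 mice given saline (CIV). The vehicles named in the labels are 0.5% methylcellulose, saline and corn oil, and no control group given corn oil is among the samples. The labels give the dose as a volume per body weight and not as an amount. With 1 time point, the values describe a state at 24 h and not a course.

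Interleukin 1 alpha and interleukin 1 beta signal through the same receptor, and the product of Il1rn occupies that receptor without signalling, while the product of Il18bp binds free interleukin 18. Interleukin 6 acts on hepatocytes through the kinases and the transcription factor of the JAK-STAT pathway, which switch on acute phase proteins and also Socs3, the inhibitor that then dampens the receptor. TNF and G-CSF (Csf3) are made by macrophages and stromal cells, the latter driving neutrophil production. Interleukin 10 restrains macrophages, and Nos2 is the inducible nitric oxide synthase of cells exposed to interferon gamma and bacterial products.

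The sequences before 3 of these genes are shown because Socs3 rose with 6 of the 7 compounds, Il6 was high enough to be tested with only 1 compound, where it rose, and Il1rn separated most from the ligand it opposes. RefSeq promoter entries were matched by symbol for 7 of the 10 genes, on GRCm38.p6. Each line gives the 250 bases before the transcription start, 5′ to 3′ on the gene's strand: Socs3 at chr11:117969367-117969616 on the minus strand, Il6 at chr5:30012864-30013113 on the plus strand, and the first of 3 listed starts of Il1rn at chr2:24336610-24336859 on the plus strand. Capitals mark matches to the motifs searched.
Socs3: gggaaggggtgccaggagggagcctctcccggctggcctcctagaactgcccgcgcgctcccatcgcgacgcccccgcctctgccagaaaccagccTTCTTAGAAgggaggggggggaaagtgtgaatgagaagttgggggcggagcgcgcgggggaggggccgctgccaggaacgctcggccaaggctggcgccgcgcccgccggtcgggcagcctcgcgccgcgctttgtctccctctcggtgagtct
Il6: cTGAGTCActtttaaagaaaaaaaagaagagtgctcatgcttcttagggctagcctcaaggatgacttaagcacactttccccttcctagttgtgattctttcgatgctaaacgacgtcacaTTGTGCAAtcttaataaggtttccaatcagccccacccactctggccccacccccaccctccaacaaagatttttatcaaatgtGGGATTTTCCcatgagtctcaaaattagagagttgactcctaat
Il1rn: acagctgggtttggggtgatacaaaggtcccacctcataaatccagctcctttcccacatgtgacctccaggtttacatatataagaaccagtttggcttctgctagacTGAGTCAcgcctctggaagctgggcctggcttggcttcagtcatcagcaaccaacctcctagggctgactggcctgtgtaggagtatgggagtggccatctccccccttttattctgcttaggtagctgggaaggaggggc
The motifs, searched on both strands, were the STAT element TTCNNNGAA, the AP-1 element TGANTCA, the C/EBP element TTGCNNAA and the kappa B consensus. In Socs3 the capitals are a STAT element at bases -154 to -146 from the start. In Il6 they are an AP-1 element at -249 to -243, a C/EBP element on the minus strand at -128 to -121 and a kappa B site at -44 to -35, and in Il1rn they are an AP-1 element at -141 to -135. Il1a held an AP-1 element and Il18bp a C/EBP element, and the windows of Il1b, Tnf and the other starts of Il1rn held none of these letters. Among 32851 promoters of the same length, 7.02% held the STAT element, 6.75% the AP-1 element, 9.56% the C/EBP element and 3.9% the kappa B consensus, so each match is a description and not a binding site.

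Levels are given in CPM, the estimated count of a gene relative to its library total after scaling by the trimmed mean of M values. Library totals ran from 13826343 to 35075809 with a median of 21532116. The deposited values behave as if corrected for transcript length, and levels of different genes are therefore compared only in that sense. Il6 was at 0 in 16 of the 57 livers, Il10 in 15, Csf3 in 30, Nos2 in 10 and Tnf in 5, while the other 5 genes were detected in all. The tissue was liver by its markers: the summed level of 5 hepatocyte genes was between 16115 CPM in CCl4 and 112390 CPM in MDA. With library totals in place of the trimmed mean, the median log2 change of all genes moved by -0.22 in ANIT, 0.16 in APAP, 0.43 in CCl4, 0.76 in GAL and -0.59 in ConA, and by less than 0.1 in MDA and TAA. Under that scaling the share of calls that were higher went from 49.5% to 23.7% in ANIT, from 54.3% to 72.5% in APAP, from 53.6% to 80.6% in CCl4, from 44.9% to 86.7% in GAL and from 49.3% to 22.7% in ConA, with smaller moves in MDA (51.5% to 44.5%) and TAA (52.4% to 53.3%). In bulk tissue, fewer cells of a type and less RNA per cell cannot be told apart.

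Each compound was first compared with the vehicle of its own route. A gene is called when its Benjamini-Hochberg adjusted p from edgeR's quasi-likelihood test, taken over all genes tested, is under 0.05. Of the members that passed the filter on low counts, 1 of 6 was called higher after ANIT (against 14% of all genes tested), 5 of 6 after APAP (17.3%), 1 of 6 after MDA (17.4%), 7 of 8 after TAA (26.4%), 2 of 6 after CCl4 (18%), 2 of 6 after GAL (12.8%) and 6 of 9 after ConA (16.8%). No member was called lower with any compound, where 14.2%, 14.6%, 16.4%, 24%, 15.6%, 15.7% and 17.3% of all genes were, in the same order. The median log2 change of the members tested was -0.07, 2.03, 0.52, 2.52, 1.06, 1.65 and 5.08 in that order, against medians of all genes between -0.01 and 0.10. The ANIT mice are all numbered 1 to 4. With the number range of the mouse (1 to 4, or above 4) as a covariate, more members were called in ANIT, as given below. Of Il6, Il10, Csf3 and Nos2, the filter let through Csf3 and Nos2 in TAA and Il6, Csf3 and Nos2 in ConA, and none with the other compounds. Against own vehicle, Il6, Csf3 and Nos2 were thus tested only in TAA or ConA, where some treated livers were high enough to pass the filter. Their calls there depend on that filter. For that reason the counts and medians describe the tested members and not all 10.

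**Figure D1:**
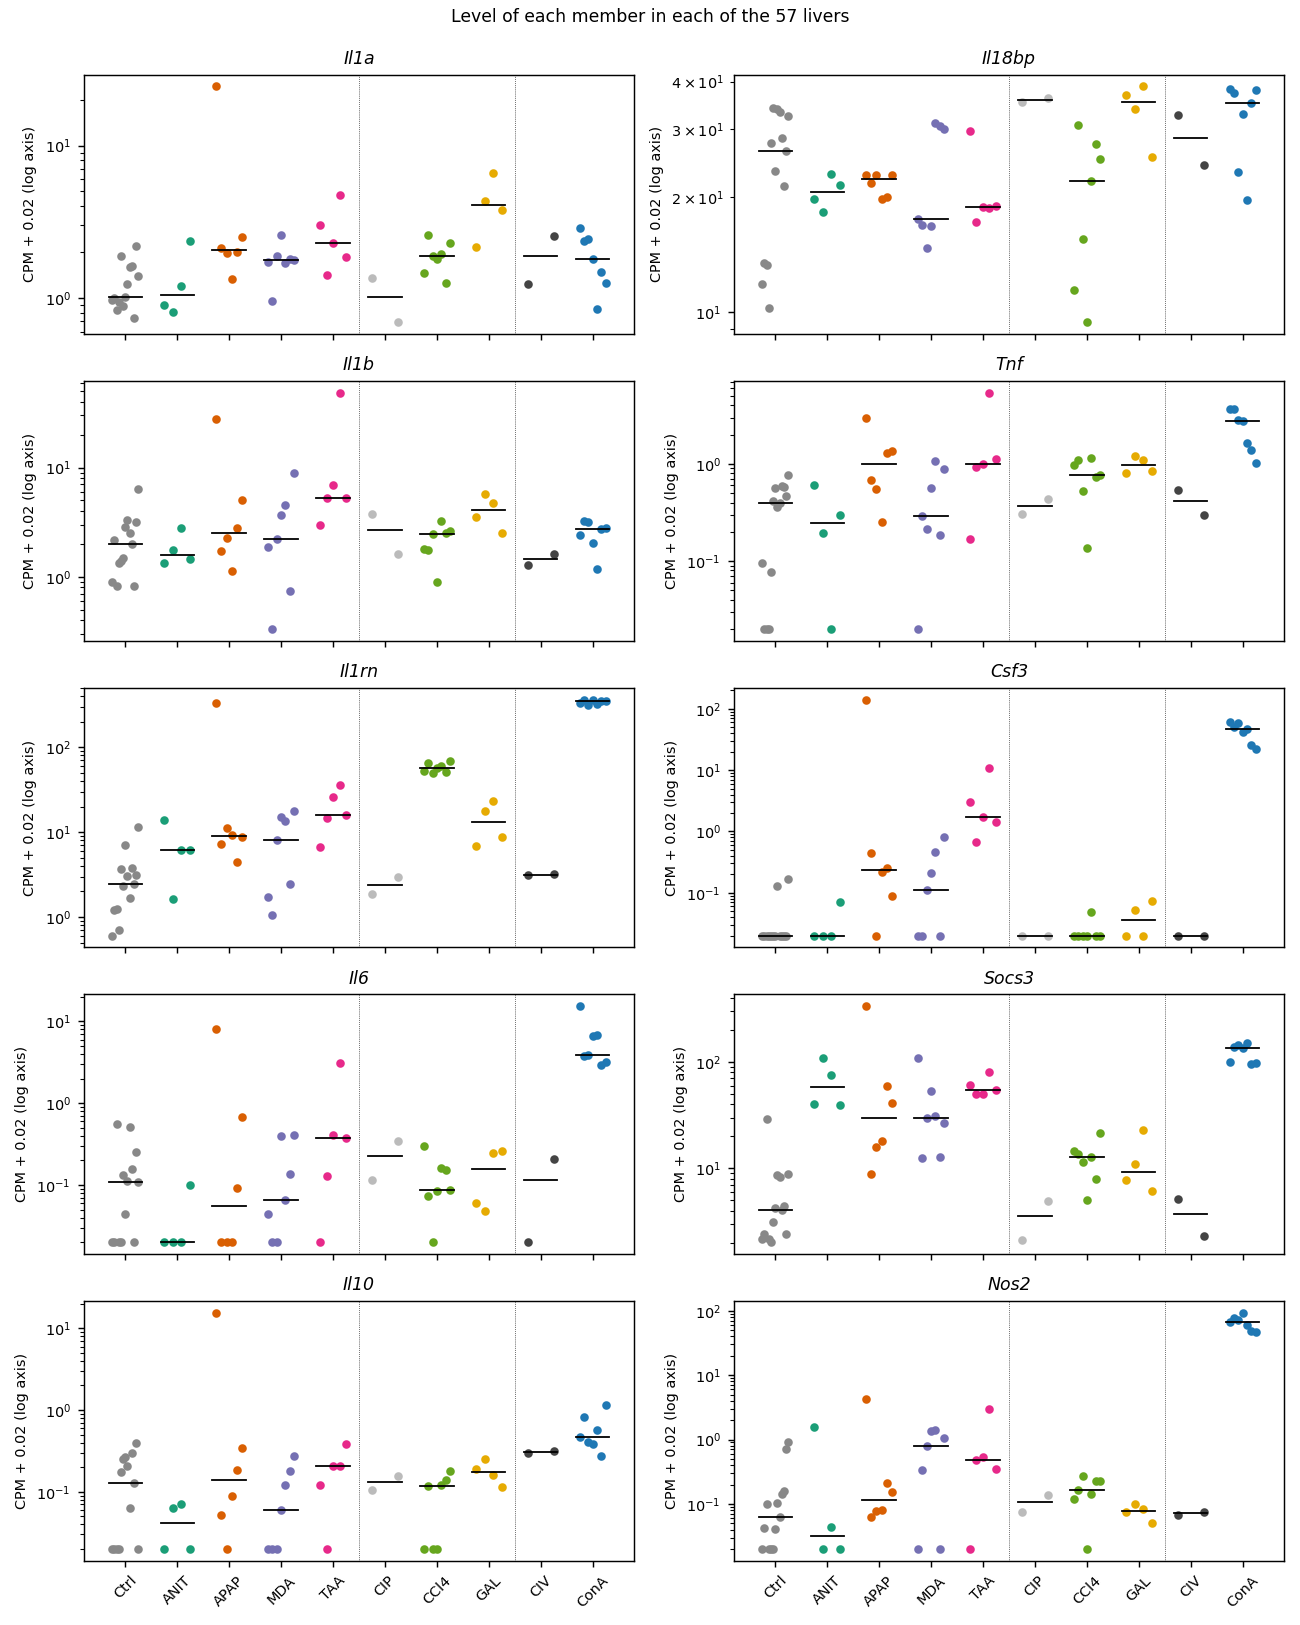
Level of each of the 10 genes in every liver, in CPM plus 0.02 on a log axis, with groups on the horizontal axis and a black bar at each group's median. By median, ConA is the highest group for Il1rn, Il6, Il10, Tnf, Csf3, Socs3 and Nos2, and 1 APAP liver lies far above the other 5 for most genes.

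The 2 interleukin 1 ligands behaved modestly. Il1a (ENSMUSG00000027399.2), which is released from dying cells, was at 0.722 to 2.16 CPM in Ctrl with a median of 1.00. It was at 3.00, 1.39, 2.28, 4.73 and 1.84 CPM in the 5 TAA livers, and at 2.13, 4.31, 6.57 and 3.78 CPM in the 4 GAL livers against 1.33 and 0.671 CPM in CIP. In APAP 5 livers were between 1.32 and 2.50 CPM and the liver of mouse 1 was at 24.5 CPM. All GAL livers were above both CIP livers, while TAA overlapped Ctrl in 2 livers. The log2 change was 1.15 ± 0.28 (SE) in TAA (adjusted p = 0.00173), 2.23 ± 0.48 in APAP (adjusted p = 0.00158) and 2.04 ± 0.58 in GAL (adjusted p = 0.0417; edgeR quasi-likelihood test). The GAL change was 1.6 to 2.78 over the 6 fits that left out 1 mouse, 5 of which lost the call, and it was called against all 17 vehicle livers, at 1.68 ± 0.28. Il1a was not called in ANIT, MDA, CCl4 or ConA, with log2 changes of 0.07, 0.51, 0.92 and 0.05.

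Il1b (ENSMUSG00000027398.14), the secreted ligand made mainly by monocytes, macrophages and neutrophils, was at 0.809 to 6.29 CPM in Ctrl with a median of 1.97. The TAA livers held 2.94, 5.23, 6.83, 48.1 and 5.28 CPM, the fourth of these being mouse 7. In APAP mouse 1 was at 28.0 CPM and the other 5 between 1.11 and 5.04 CPM. Among the other livers of these 2 groups, only the third TAA liver exceeded the highest Ctrl liver. Il1b rose in TAA by a log2 change of 2.66 ± 0.52 (adjusted p = 0.000293) and was called in APAP at 1.64 ± 0.55 (adjusted p = 0.0285, edgeR quasi-likelihood test). Without TAA mouse 7 the change was 1.23 (adjusted p = 0.0195), and without APAP mouse 1 it was 0.24 (adjusted p = 0.732). Il1b did not pass the test in the other 5 compounds, and ConA livers were at 1.15 to 3.20 CPM against 1.27 and 1.6 CPM in CIV.

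Il1rn (ENSMUSG00000026981.16), the receptor antagonist, had the largest change of the tested members in CCl4 and GAL. Its level was 0.584 to 11.3 CPM in Ctrl, with a median of 2.45, 1.83 and 2.94 CPM in CIP, and 3.11 and 3.17 CPM in CIV. ConA livers were at 318 to 364 CPM with a median of 346, and CCl4 livers at 49.2 to 68.0 CPM with a median of 57.1. Neither group came near any of the 17 vehicle livers, and the livers within each lay close together. Il1rn rose 113-fold in ConA (log2 6.82 ± 0.27, adjusted p = 1.95e-06) and 25.1-fold in CCl4 (4.65 ± 0.26, adjusted p = 5.93e-06, edgeR quasi-likelihood test). The GAL livers held 6.91, 17.9, 23.1 and 8.65 CPM, all above both CIP livers, with a log2 change of 2.60 ± 0.62 (adjusted p = 0.0257). Over the 6 fits leaving out 1 mouse it stayed at 2.27 to 2.89, with 3 of them past the threshold.

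Among the gavage compounds, Il1rn was at 6.59, 14.6, 25.9, 36.3 and 16.1 CPM in TAA, where it rose by 2.65 ± 0.50 on the log2 scale (adjusted p = 0.000191, edgeR quasi-likelihood test). In APAP mouse 1 held 333 CPM, a level within the ConA range, and the other 5 livers 4.43 to 11.0 CPM. The log2 change in APAP was 4.31 ± 0.80 with all mice (adjusted p = 0.000376) and 1.35 without mouse 1 (adjusted p = 0.0437, edgeR quasi-likelihood test). ANIT (14, 1.6, 6.11 and 6.14 CPM) and MDA (1.04 to 17.8 CPM, median 8.00) overlapped Ctrl and were not called, at 1.09 ± 0.59 and 1.40 ± 0.54. Ctrl mice numbered 1 to 4 were lower than the 9 numbered above 4, with medians of 0.937 and 3.11 CPM. Fitted with the number range as a covariate, Il1rn was called in ANIT at 2.90 (adjusted p = 0.00529) and in MDA at 2.03 (adjusted p = 0.00489, edgeR quasi-likelihood test).

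The level of Il1rn relative to Il1b in the same liver does not depend on library scaling. Over the 17 vehicle livers this ratio was 0.49 to 3.02 with a median of 1.56. In ConA it was 101 to 284 with a median of 128, and in CCl4 18.4 to 65.4 with a median of 25.9. No liver of the other compounds reached the CCl4 range: the medians were 3.25 in ANIT, 4.57 in APAP, 3.33 in MDA, 2.79 in TAA and 3.31 in GAL. APAP mouse 1 had the highest ratio of its group at 11.9, and TAA mouse 7 the lowest of its group at 0.755. Antagonist and ligand thus stood apart in ConA and CCl4, where Il1b itself was not called.

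**Figure D2:**
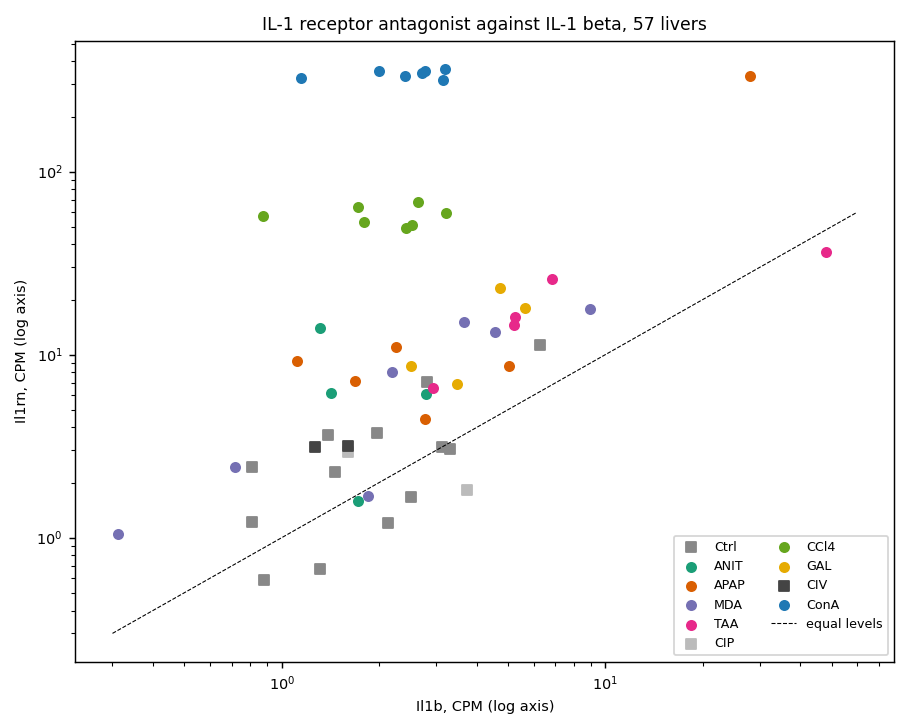
Il1rn against Il1b in each of the 57 livers, both in CPM on log axes, coloured by group, with a dashed line at equal levels. ConA and CCl4 livers form bands at high Il1rn with Il1b inside the vehicle range, while APAP mouse 1 and TAA mouse 7 are high for both.

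The other genes of the interleukin 1 pathway, 12 in the list of receptors and processing enzymes, gave 6 higher and 1 lower of 11 tested in ConA (median log2 change 1.16), and 5 higher and 2 lower of 10 in TAA (0.73). The counts were 3 and 2 of 9 in APAP (0.89), 1 and 2 of 10 in ANIT (-0.43), 2 and 4 of 10 in MDA (-0.09), 1 and 3 of 10 in CCl4 (-0.11), and 2 and 3 of 10 in GAL (-0.01). All genes were called higher and lower in 16.8% and 17.3% in ConA, 26.4% and 24% in TAA, and 17.3% and 14.6% in APAP. These shares were 14% and 14.2% in ANIT, 17.4% and 16.4% in MDA, 18% and 15.6% in CCl4, and 12.8% and 15.7% in GAL. The ANIT counts and the higher counts in MDA, CCl4 and GAL lie near or under them. The same shares apply to the other lists, where counts of 1 or 2 genes can lie near them. Without mouse 1 the APAP counts were 1 and 2, and Il1r1 was no longer called there. With library totals GAL had 3 higher and none lower, ANIT 1 and 4, and ConA 5 and 2. Il1r1, the signalling receptor, rose in ANIT (2.49 ± 0.42, adjusted p = 0.000302), APAP (2.61 ± 0.60, adjusted p = 0.00247), MDA (2.12 ± 0.36, adjusted p = 0.000106), TAA (1.84 ± 0.39, adjusted p = 0.000575) and ConA (3.35 ± 0.58, adjusted p = 0.00177, edgeR quasi-likelihood test). ConA livers held 68.4 to 190 CPM of Il1r1 and the vehicle livers 3.26 to 21.5 CPM, with no overlap. Il1r2, the decoy receptor that binds interleukin 1 without signalling, rose in TAA by 5.43 ± 0.86 (adjusted p = 3.11e-05) and in MDA by 2.94 ± 0.86 (adjusted p = 0.011, edgeR quasi-likelihood test). It was at 4.49 to 45 CPM in TAA and 5.15 to 13.5 CPM in ConA.

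Il18bp (ENSMUSG00000070427.5), the interleukin 18 binding protein, was tested with all 7 compounds and called with none. ConA livers were at 19.6 to 38.3 CPM with a median of 35.1, against 32.7 and 24.2 CPM in CIV. GAL livers held 37.0, 33.9, 38.9 and 25.4 CPM against 35.3 and 36.3 CPM in CIP, and CCl4 livers 9.37 to 30.9 CPM with a median of 22.0. The CCl4 livers all lay below both CIP livers, and the other 2 groups overlapped theirs. The log2 changes were -0.78 ± 0.40 in CCl4 (adjusted p = 0.172), -0.08 ± 0.21 in GAL (adjusted p = 0.794) and 0.23 ± 0.31 in ConA (adjusted p = 0.590, edgeR quasi-likelihood test). With library totals the GAL value was 0.68 and the ConA value -0.39. Against all vehicles with the number range as a covariate, Il18bp was called lower in CCl4 (-0.42, adjusted p = 0.0298) and higher in GAL (0.78, adjusted p = 0.00392) and ConA (0.70, adjusted p = 0.00246, edgeR quasi-likelihood test), where the fit without the covariate and with library totals gave 0.15 in CCl4 and -0.23 in ConA.

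In the gavage groups, Il18bp differed with the number of the mouse. Ctrl mice 1 to 4 were at 11.8, 13.4, 13.2 and 10.2 CPM and the other 9 Ctrl mice at 21.3 to 34.0 CPM, with no overlap. MDA mice showed the same split, at 17.5, 16.8, 14.6 and 16.8 CPM for mice 1 to 4 and 31.2, 30.6 and 30.0 CPM for mice 7, 8 and 12. APAP mice did not, ranging from 19.7 to 22.8 CPM over both ranges, and TAA mice 1 and 3 were at 29.8 and 17.2 CPM against 18.7 to 18.9 CPM for mice 6, 7 and 8. The labels do not say what the numbers stand for. Against the Ctrl mice of the same range, Il18bp was higher in ANIT (log2 0.74, adjusted p = 0.0144), APAP (0.93, adjusted p = 0.0296) and TAA (0.98, adjusted p = 0.0405) among mice 1 to 4, and lower in TAA (-0.59, adjusted p = 0.00681) among mice above 4 (edgeR quasi-likelihood test). In MDA neither range passed, at 0.41 (adjusted p = 0.116) and 0.088 (adjusted p = 0.726).

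The difference between the ranges was itself tested for 3 compounds. In TAA it was called for Il18bp at -1.61 ± 0.28 on the log2 scale (adjusted p = 0.0284, edgeR quasi-likelihood test), as for 0.111% of all genes, and in APAP and MDA for 0% of genes and no member. The Kupffer cell marker sum moved with the number in the same way, at 151 to 187 CPM in Ctrl mice 1 to 4 and 258 to 437 CPM in the other Ctrl mice, and the hepatocyte sum the other way, at 72535 to 101699 CPM and 45798 to 69781 CPM. Their part in the result was not tested. Il18, the cytokine that Il18bp binds, was called lower with all 7 compounds, with log2 changes from -0.44 ± 0.12 in MDA to -1.90 ± 0.33 in ConA. With library totals, the calls in APAP, CCl4 and GAL were lost.

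**Figure D3:**
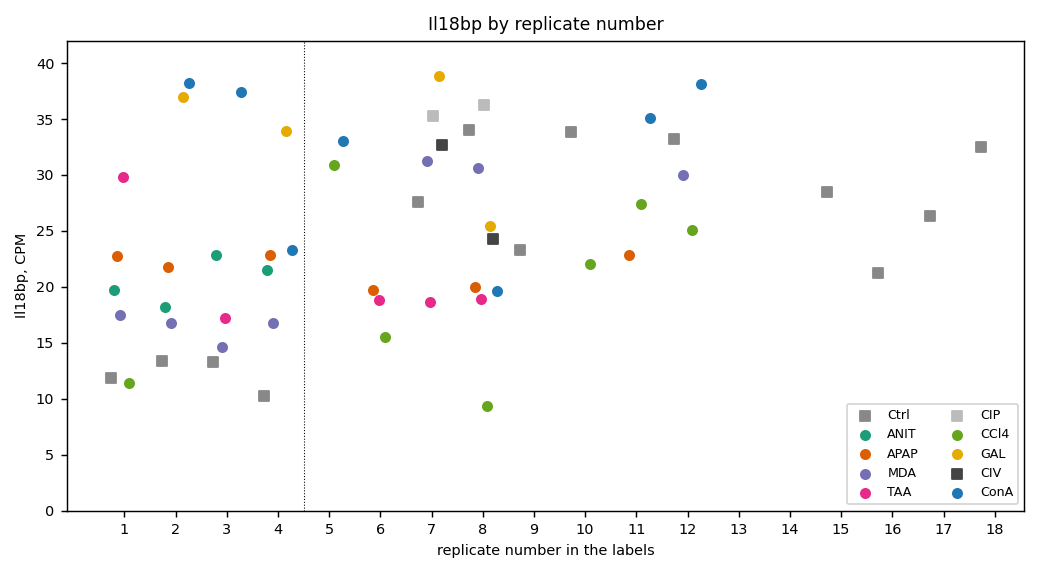
Il18bp level (CPM) of each of the 57 livers against the number of the mouse in its group, squares for vehicles and circles for compounds, with a dotted line after mouse 4. Ctrl mice 1 to 4 lie at 10.2 to 13.4 CPM and all later Ctrl mice at 21.3 CPM or more.

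Il6 (ENSMUSG00000025746.12) was close to its detection limit in most livers. In the 17 vehicle livers it was at 0 to 0.543 CPM with a median of 0.0909. All 7 ConA livers were at 2.95 to 15.3 CPM with a median of 3.91, against 0 and 0.188 CPM in CIV. The only other livers above 1 CPM were APAP mouse 1 at 8.08 CPM and TAA mouse 7 at 3.08 CPM. The ConA livers did not overlap any vehicle liver, and Il6 rose there by 5.93 ± 1.16 on the log2 scale (adjusted p = 0.00331) and by 5.6 ± 0.54 against all vehicles (adjusted p = 1.47e-09, edgeR quasi-likelihood test). With the CIV mouse at 0 set to the floor of 3 estimated counts the log2 fold was 5.41. Against all vehicles it was 4.89, with livers under the floor set to it, 10 of the 17 being at or under it. Leaving out CIV mouse 8 gave a fitted 9.52, against a single mouse at 0, and 5.95 against its floor.

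Socs3 (ENSMUSG00000053113.4), the feedback inhibitor of the interleukin 6 receptor, was called with 6 of the 7 compounds against own vehicle, where Il1rn was called with 5. Against all vehicles each was called with 6. Vehicle livers were at 2.00 to 28.9 CPM with a median of 4.01, and apart from Ctrl mouse 3 at 28.9 CPM the highest was at 8.84 CPM. ConA livers held 96.1 to 151 CPM with a median of 135. ANIT livers held 40.4, 109, 75.6 and 39.5 CPM, and TAA livers 60, 49.9, 49.9, 80.4 and 54.2 CPM. Each of these 3 groups lay wholly above every vehicle liver. The log2 changes were 5.08 ± 0.43 in ConA (adjusted p = 4.61e-05), 3.41 ± 0.54 in ANIT (adjusted p = 0.000195) and 3.29 ± 0.49 in TAA (adjusted p = 1.49e-05, edgeR quasi-likelihood test).

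In MDA Socs3 had a median of 29.9 CPM and a highest value of 110 CPM, 3 of 7 livers lying under Ctrl mouse 3, and rose by 2.66 ± 0.51 (adjusted p = 0.000401, edgeR quasi-likelihood test). In APAP the livers of mice 1, 2, 4, 6, 8 and 11 held 333, 8.76, 16.0, 17.9, 59.5 and 41.3 CPM, and the log2 change was 3.72 ± 0.67 (adjusted p = 0.000305) with mouse 1 and 2.24 without it (adjusted p = 0.00461, edgeR quasi-likelihood test). Socs3 was the 1 member called in APAP among mice numbered above 4 alone, at 3.00 (adjusted p = 0.000633, edgeR quasi-likelihood test). The CCl4 livers were at 5.00 to 21.6 CPM, all above the CIP livers at 2.11 and 4.96 CPM, with a log2 change of 1.89 ± 0.56 (adjusted p = 0.0277) that was lost without either CIP mouse. In GAL, at 7.72, 10.9, 22.8 and 6.06 CPM, the change of 1.80 ± 0.67 was not called (adjusted p = 0.0888), although all 4 livers were above both CIP livers.

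Acute phase genes, the main hepatocyte targets of interleukin 6, did not follow Socs3 with every compound. Of 11 genes, 10 were called higher in ANIT (median log2 change 1.88), 10 in MDA (1.38) and 11 in ConA (2.57), with none lower. In APAP 9 were higher and Crp, a pentraxin, was lower (1.71), and without mouse 1 there were 5 higher and 1 lower. TAA had 1 higher, Lcn2, and 1 lower, Crp (-0.13), while GAL had 10 lower and none higher (-2.19) and CCl4 5 higher and 2 lower (0.34). With library totals GAL had 6 lower, and CCl4 8 higher and none lower. The summed level of the list was 10014 to 20773 CPM in vehicle livers, 12538 to 17493 CPM in TAA, 82916 to 113015 CPM in ConA and 2710 to 7332 CPM in GAL. TAA livers thus overlapped the vehicle range while all of their Socs3 values lay above it. Lcn2, an iron-sequestering protein, rose in TAA by 3.99 ± 0.74 (adjusted p = 0.000168) and in ConA by 7.84 ± 0.41 (adjusted p = 6.79e-06, edgeR quasi-likelihood test). Reads of Saa1 and Saa2, and of Orm1 and Orm2, may be split uncertainly between near-identical copies.

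The interleukin 6 family list of 10 genes had 6 higher and none lower of 10 tested in ConA (median log2 change 2.22), 5 and 0 of 8 in TAA (0.63), 5 and 1 of 8 in APAP (0.77), 4 and 1 of 7 in ANIT (0.88), 4 and 1 of 7 in MDA (0.67), 3 and 2 of 9 in CCl4 (0.19) and 2 and 2 of 9 in GAL (0.45). Without mouse 1 the APAP counts were 3 and 1, and with library totals GAL had 5 and 1, CCl4 4 and 0, and MDA 2 and 1. Clcf1, a ligand of the family, was called higher with all 7 compounds, with log2 changes from 1.75 in CCl4 to 3.76 in TAA, a call lost in ConA with library totals. Lif, the leukaemia inhibitory factor, was called higher in APAP, TAA, CCl4, GAL and ConA, against CIP and CIV livers at 0.0463 CPM or less. Osmr, the oncostatin M receptor, was called in every compound but GAL, and Osm, its ligand, in ConA (adjusted p = 0.00101, edgeR quasi-likelihood test). Il11 was at 1.44 to 3.33 CPM in ConA and at 0 in both CIV livers.

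Inhibitors other than Socs3 also rose with some of the compounds. Of the 10 feedback inhibitors listed, 9 were called higher in ConA with none lower (median log2 change 3.09), 7 of 10 in TAA (1.44), 5 of 9 in ANIT (1.13), 4 of 9 in APAP (1.09) and 3 of 9 in MDA (0.80), again with none lower. The shares of all genes called higher were 16.8%, 26.4%, 14%, 17.3% and 17.4%, in that order. In CCl4 and GAL 1 was higher (18% and 12.8% of all genes) and 1 lower (15.6% and 15.7%), which is no more than about those shares. The lower gene was Zfp36, which destabilises cytokine mRNAs, at -2.20 ± 0.35 (adjusted p = 0.00123) and -2.43 ± 0.31 (adjusted p = 0.00389, edgeR quasi-likelihood test). With library totals ConA had 7 higher, ANIT 4 higher and 1 lower, and APAP 6 higher. Without mouse 1, APAP had 1, Socs2. Socs1, the inhibitor of interferon signalling, rose in TAA by 2.59 ± 0.39 (adjusted p = 1.67e-05) and in ConA by 7.32 ± 0.81 (adjusted p = 0.000158, edgeR quasi-likelihood test). Tnfaip3, which ends NF-kappa B signalling, rose by 6.89 ± 0.84 in ConA and by 3.36 in TAA. Irak3, a brake on interleukin 1 and Toll-like receptors, rose by 6.24 ± 0.47 in ConA. It was also called higher in ANIT (1.58), APAP (3.16), MDA (1.26), TAA (2.30) and CCl4 (1.23), but not in GAL (0.31).

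Tnf (ENSMUSG00000024401.15) was low in all groups. Vehicle livers held 0 to 0.753 CPM with a median of 0.381, and ConA livers 0.998 to 3.67 CPM with a median of 2.74, above all of them. The TAA livers held 0.148, 0.906, 0.982, 5.36 and 1.10 CPM, so that 4 of 5 were above the highest vehicle liver. In APAP mice 1, 8 and 11 were at 2.92, 1.28 and 1.33 CPM and the other 3 at 0.234 to 0.659 CPM, inside the vehicle range. Tnf was called in ConA at 2.58 ± 0.64 (adjusted p = 0.0116), in TAA at 2.39 ± 0.70 (adjusted p = 0.00743) and in APAP at 1.83 ± 0.63 (adjusted p = 0.0320, edgeR quasi-likelihood test). The TAA call was lost without mouse 7, where the log2 change was 1.30 (adjusted p = 0.165). The APAP call was lost without mouse 1, 8 or 11, with log2 changes of 1.32 to 2.05 over the fits without 1 mouse, and the ConA call without CIV mouse 8 (adjusted p = 0.0884), with log2 changes of 2.20 to 3.10. Against all vehicles ConA, called in each of 24 fits without 1 mouse, was at 2.90 ± 0.46 (adjusted p = 4.03e-06), and GAL, at 0.785 to 1.19 CPM in every liver above the vehicle range, at 1.49 ± 0.61 (adjusted p = 0.0447, edgeR quasi-likelihood test).

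Tnf also differed with the mouse number, Ctrl mice 1 to 4 holding 0.0761, 0, 0 and 0 CPM and the other 9 a median of 0.443 CPM. With the number range as a covariate, ANIT (0.592, 0.173, 0 and 0.281 CPM) was called at 3.44 (adjusted p = 0.0405), where the fit without it gave -0.41 ± 0.92 (adjusted p = 0.781, edgeR quasi-likelihood test). That value compares fractions of a CPM with mice at or near 0. Of 7 genes listed as TNF ligands, receptors and their signalling partners, 6 were tested: 4 were called higher in ConA (median log2 change 1.43), 4 in TAA, 3 in APAP, 1 in ANIT and 1 in MDA, and none in CCl4 or GAL, with none lower. With library totals ConA had 1, Birc3, and GAL 4, and without mouse 1 APAP had 0. Tnfrsf1a, the main TNF receptor, rose in ANIT by 1.40 ± 0.15 (adjusted p = 4.61e-06, edgeR quasi-likelihood test).

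Csf3 (ENSMUSG00000038067.3) was at 0 in 15 of the 17 vehicle livers and at 0.145 CPM at most. ConA livers held 21.9 to 61.9 CPM with a median of 46.7, and the 5 TAA livers 3.03, 0.664, 1.71, 10.9 and 1.39 CPM. APAP mouse 1 was at 141 CPM, the highest of all 57 livers, and the other APAP livers at 0 to 0.417 CPM. Both ConA and TAA stood clear of every vehicle liver. Csf3 was at least 449-fold higher in ConA than in CIV, counting 3 estimated counts as the floor for the mice at 0 (adjusted p = 3.78e-05, edgeR quasi-likelihood test). It also rose in TAA (adjusted p = 1.92e-07, edgeR quasi-likelihood test), 22.4-fold when the Ctrl livers under the floor are set to it. The fitted log2 change of 6.91 ± 0.72 depends on a control group with 11 of 13 livers at 0. Without TAA mouse 7 the call held (adjusted p = 2.74e-06) and the fold over the floor was 10.8. In CCl4 1 of 7 livers had any, at 0.0281 CPM, and MDA livers reached 0.781 CPM.

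The neutrophil marker sum, of 5 genes, was above every vehicle liver in TAA, at 153, 276, 356, 783 and 290 CPM. Mouse 7 was highest in both this sum and Csf3, while mouse 1, with the next highest Csf3, had the lowest sum. It was 126 to 286 CPM in ConA against 5.85 and 6.38 CPM in CIV, and 0.695 to 50.4 CPM over all vehicle livers. In TAA 5 of 5 neutrophil markers were called higher and in ConA 4 of 4 tested, but so were 3 of 3 in APAP, 3 of 4 in GAL, 2 of 4 in CCl4, 2 of 3 in MDA and 1 of 3 in ANIT, where Csf3 was low in most livers. The shares of all genes called higher were 26.4%, 16.8%, 17.3%, 12.8%, 18%, 17.4% and 14%, in the same order. Ly6g passed the filter on low counts only in TAA and ConA, and Cxcr2 only in TAA, CCl4 and GAL. The counts therefore cover different markers, and the Ly6g calls depend on that filter. In ConA the Ly6g levels overlapped those of CIV. Ly6g, a defining neutrophil marker, was at 0 in all 17 vehicle livers and at 0.596 to 0.910 CPM in TAA. APAP mouse 1 had a sum of 37.3 CPM, under the 249.9 and 186 CPM of mice 11 and 8, whose Csf3 was at 0.0696 and 0.229 CPM. The part of these cells in the result was not tested. Of the 7 colony stimulating factors and receptors, 6 were tested, giving 3 higher and none lower in TAA, 2 and 0 in APAP, 1 and 1 in ConA, 1 and 1 in CCl4, 2 and 1 in GAL and 0 and 1 in ANIT and MDA. The counts in ConA and CCl4 are about the shares of all genes, 16.8% higher and 17.3% lower in ConA and 18% and 15.6% in CCl4. So are the single lower genes in GAL, ANIT and MDA (15.7%, 14.2% and 16.4%). With library totals ConA had 0 and 2, and GAL 3 and 0. Csf3r, the receptor on neutrophils, rose in TAA by 2.71 ± 0.50 (adjusted p = 0.00016), and Csf1r, the macrophage receptor, fell in ConA by 3.44 on the log2 scale (edgeR quasi-likelihood test).

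Il10 (ENSMUSG00000016529.6) passed the filter on low counts in none of the comparisons between 2 groups. Vehicle livers held 0 to 0.372 CPM, ConA livers 0.257 to 1.14 CPM with a median of 0.453, and APAP mouse 1 was at 15.5 CPM. The other 5 APAP livers were at 0 to 0.327 CPM, TAA livers at 0 to 0.361 CPM and GAL livers at 0.096 to 0.235 CPM. Outside that 1 mouse and the upper part of ConA, Il10 did not leave the vehicle range. Among 6 genes listed as interleukin 10 receptors and other macrophage brakes, those called higher and lower were 2 and 1 in ANIT, 3 and 1 in APAP, 2 and 1 in MDA, 1 and 1 in TAA, 2 and 2 in CCl4, 1 and 1 in GAL and 1 and 1 in ConA, which in TAA, GAL and ConA is about the share of all genes. The list includes Arg1, at a mean of 889 CPM in Ctrl against 2.33 CPM for Il10ra and 0.512 CPM for Irak3. Arg1 was among the genes called higher in ANIT (0.87) and MDA (0.80) and lower in CCl4 (-1.21) and GAL (-3.02). Which cells its changes came from was not tested, so the counts are not read as changes of macrophages. Sigirr, a receptor that damps interleukin 1 signalling, was lower in APAP (-0.80), TAA (-1.29), CCl4 (-0.76) and ConA (-1.12), and with library totals was called only in the TAA and ConA comparisons.

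Nos2 (ENSMUSG00000020826.10) separated ConA from all other groups. ConA livers held 46.9 to 92.6 CPM with a median of 66.2. All other 50 livers were at 4.25 CPM or less: APAP mouse 1 held 4.25 CPM, TAA mouse 7 2.92 CPM, and vehicle livers 0 to 0.898 CPM with a median of 0.0535. The lowest ConA liver thus stood more than 10 times above the highest of the others. Nos2 was at least 676-fold higher in ConA than in CIV with the floor of 3 estimated counts (adjusted p = 6.79e-06), and 288-fold higher than in all vehicles with livers under the floor set to it (adjusted p = 5.42e-14, edgeR quasi-likelihood test). TAA, at 0, 0.457, 0.524, 2.92 and 0.328 CPM, was called (adjusted p = 0.0430) at a fitted 2.34 ± 0.93, or 1.71 with the 9 Ctrl livers under the floor set to it, but overlapped Ctrl in 4 of 5 livers, and the call was lost in 14 of the 16 fits without 1 mouse in which Nos2 was tested, mouse 7 among them (1.02, adjusted p = 0.448). With library totals it was also lost.

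Interferon gamma and its targets, which induce Nos2 in macrophages and hepatocytes, were measured beside it. Ifng was at 0.443 to 3.23 CPM in ConA and at 0 in both CIV livers (adjusted p = 0.000735, edgeR quasi-likelihood test), with 0 to 0.463 CPM over all vehicles. Of 6 interferon gamma targets, 4 were called higher and none lower in ConA (median log2 change 4.36), while 1 was higher and 4 lower in ANIT, 1 and 2 in APAP, 1 and 3 in MDA, 1 and 3 in TAA, 0 and 2 in CCl4 and 1 and 1 in GAL. With library totals the counts were 0 and 0 in CCl4 and 2 and 0 in GAL. The guanylate-binding protein Gbp2 rose in ConA by 6.88 ± 0.52 and the chemokine Cxcl9 by 7.48 ± 0.65, while Cxcl9 was lower in ANIT at -2.91. The T and NK cell marker sum was 4.14 to 11.6 CPM in ConA against 3.37 and 3.44 CPM in CIV. Within it Gzmb, the granzyme of killer cells, rose by 2.41 ± 0.43 (adjusted p = 0.00216), while the T cell receptor subunit Cd3e (-0.12) and Nkg7 (0.63) were not called (edgeR quasi-likelihood test) and Cd3g and Cd8a were not tested. The Kupffer cell sum was 22.9 to 49.8 CPM against 277 and 280 CPM. All 5 Kupffer markers were called lower in ConA, with Clec4f at -2.95 ± 0.34 (adjusted p = 0.000187, edgeR quasi-likelihood test). Their part in the levels of Nos2 and the cytokines was not tested.

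**Figure D4:**
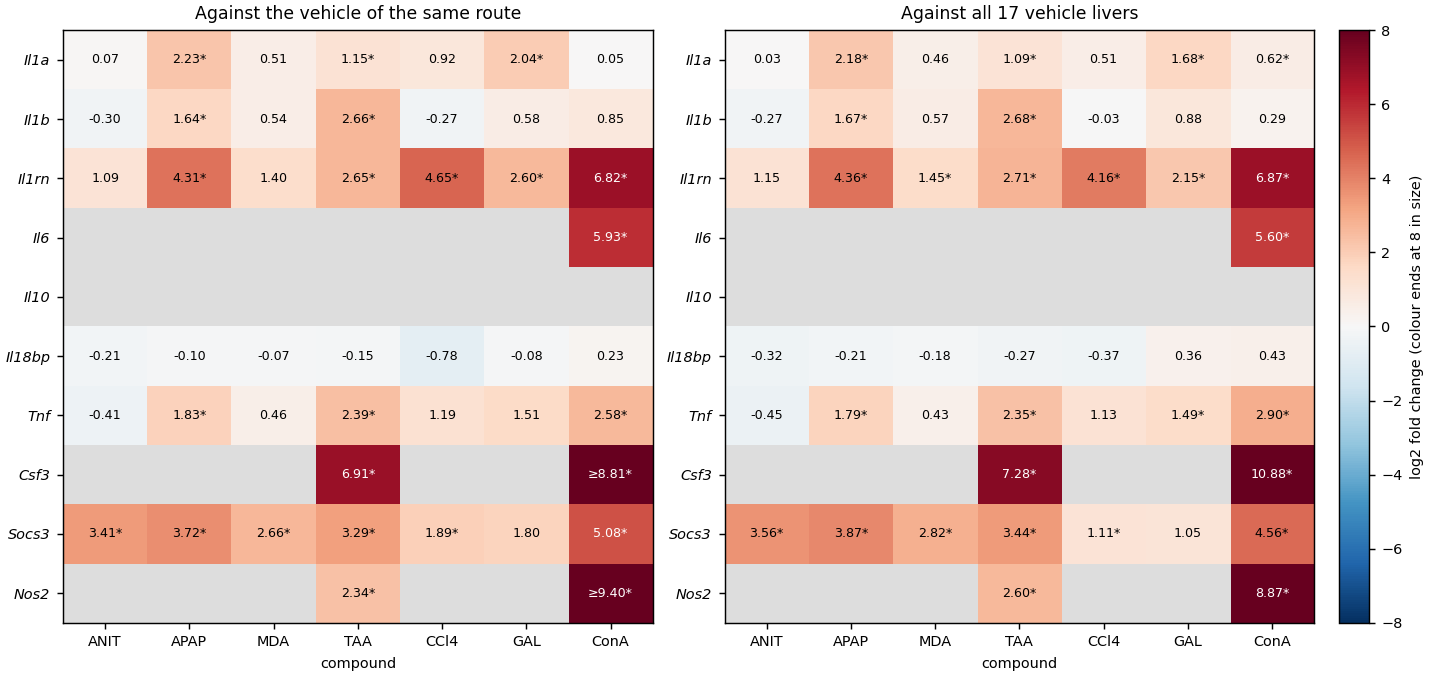
Log2 change of each gene (rows) with each compound (columns), against its own vehicle on the left and all 17 vehicle livers on the right, colour giving size and direction. Stars mark calls at an adjusted p under 0.05, grey cells were not tested, and Csf3 and Nos2 in ConA are lower bounds on the left because CIV was at or under the floor. The other values of Csf3, Il6 and Nos2 are fitted over controls mostly at or near 0.

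Against all 17 vehicle livers the members called higher were 1 of 6 in ANIT (13.5% of all genes), 5 of 6 in APAP (18.1%), 2 of 6 in MDA (17.2%), 7 of 8 in TAA (25.2%), 2 of 6 in CCl4 (26.2%), 3 of 6 in GAL (25.1%) and 7 of 9 in ConA (34.3%), and none was lower. These comparisons share their control mice with each other and with the first set, and Il6, Csf3 and Nos2 again passed the filter only in TAA or ConA. Set against the first set, 3 calls were added. Il1rn passed in MDA at 1.45 ± 0.47 (adjusted p = 0.0186) and was lost without MDA mouse 4 or 12, and Tnf passed in GAL as above, at 1.43 to 1.64 over 21 fits without 1 mouse, 6 of which lost the call. Il1a passed in ConA at 0.62 ± 0.26 (adjusted p = 0.0363, edgeR quasi-likelihood test), and turned to -0.081 with library totals. Between vehicles, CIP and Ctrl differed in 0.0131% of genes and CIV and Ctrl in 0.0263%, with none of the 8 members tested called in either. At an unadjusted p under 0.05, 570 of 15219 and 580 of 15199 genes passed, and DESeq2 called none of the members.

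Groups whose livers did not overlap at all were counted as a description. Between compound and own vehicle, 1 tested member stood apart in ANIT (8.99% of all genes did), 0 in APAP (6.69%), 0 in MDA (4.81%), 2 in TAA (20.2%), 3 in CCl4 (41%), 4 in GAL (52.3%) and 6 in ConA (39.9%). With 2 control mice, standing apart is common for any gene, and in CCl4, GAL and ConA the members' share has to be read against it. In ANIT the gene was Socs3, and in TAA they were Csf3 and Socs3.

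A single mouse carried much of the APAP result. APAP mouse 1 was the highest of its 6 livers for 9 of the 10 genes, at 24.5 CPM of Il1a, 28.0 of Il1b, 333 of Il1rn, 8.08 of Il6, 15.5 of Il10, 141 of Csf3 and 333 of Socs3. Against Ctrl without it, the calls of Il1a (0.70, adjusted p = 0.0356), Il1rn and Socs3 remained and those of Il1b and Tnf were lost. Against all vehicles the Il1a call was lost too (0.64, adjusted p = 0.0622). TAA mouse 7 was the highest of its group for 8 of 10 genes, and without it Il1a (0.82, adjusted p = 0.0192), Il1b, Il1rn (2.32, adjusted p = 0.00142), Csf3 and Socs3 (3.15, adjusted p = 7.92e-05, edgeR quasi-likelihood test) were still called. APAP mouse 1 had a monocyte marker sum of 6.57 CPM, the lowest of its group, a cholangiocyte sum of 43.7 CPM against 5.76 to 9.99 CPM in the others, and an acute phase sum of 126034 CPM. The labels give nothing that sets this mouse apart, and the part of these marker levels was not tested.

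**Figure D5:**
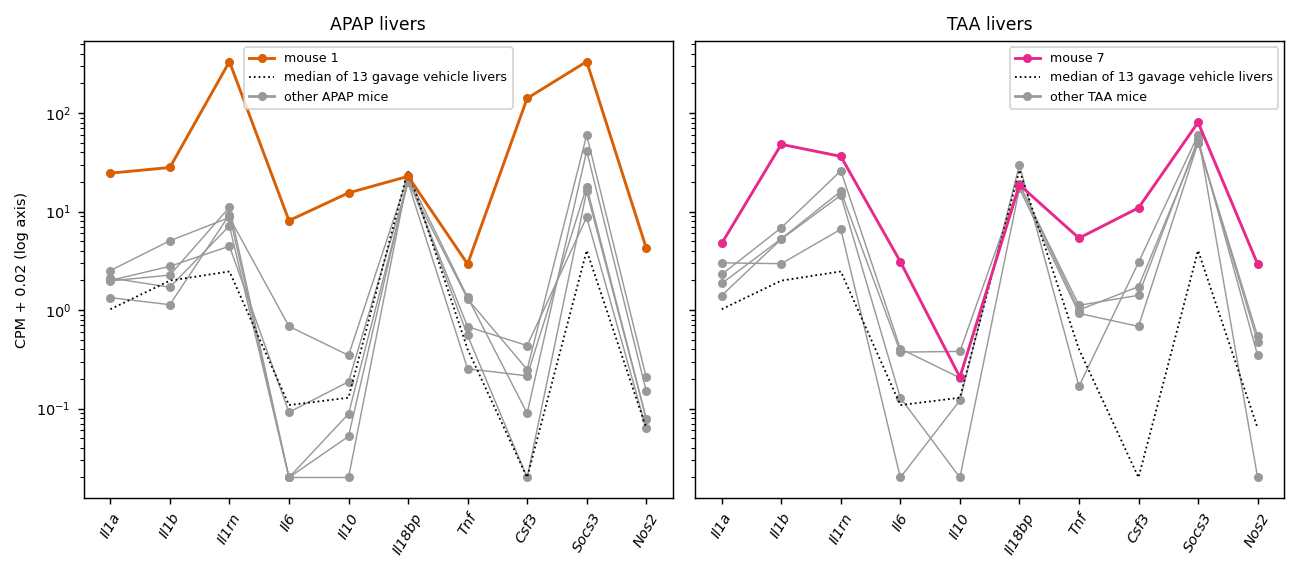
Level of each gene in every APAP liver (left) and TAA liver (right), in CPM plus 0.02 on a log axis, with mouse 1 of APAP and mouse 7 of TAA in colour and the Ctrl median dotted. APAP mouse 1 is highest for 9 of 10 genes and TAA mouse 7 for 8 of 10.

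Compounds given by the same route were compared directly, in 1 fit of all 10 groups in which every member was tested. ANIT and APAP differed in 16.9% of genes, ANIT and MDA in 0.24%, ANIT and TAA in 23.8%, APAP and MDA in 16.5%, APAP and TAA in 9.65%, MDA and TAA in 26.2%, and CCl4 and GAL in 28.6%. Over these 7 contrasts 19 member differences were called, with none between ANIT and MDA. APAP was above ANIT and above MDA for Il1a, Il1rn, Il6, Il10 and Csf3, and above TAA for Il10, and all 11 were lost without APAP mouse 1. TAA was above ANIT for Il1b, Il6, Tnf and Csf3, and above MDA for Il1b, Tnf and Csf3. Of these 7, Csf3 against ANIT (adjusted p = 0.0053, edgeR quasi-likelihood test), whose size is not given since all 4 ANIT livers were under the floor, was the only one still called without TAA mouse 7. Il18bp was lower in CCl4 than in GAL by -0.74 ± 0.28 (adjusted p = 0.0394, edgeR quasi-likelihood test). Without APAP mouse 1 other differences were called and the total was 15, without TAA mouse 7 it was 14, and with each pair fitted alone it was 6.

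The ConA effect was also set against each other effect, each measured from its own vehicle. The difference was called in 21.2% of genes against ANIT, 16.6% against APAP, 24.2% against MDA, 9.06% against TAA, 16.8% against CCl4 and 16.8% against GAL. Nos2 rose more in ConA than in ANIT (adjusted p = 0.00216), APAP (adjusted p = 0.00488), MDA (adjusted p = 0.00315) and TAA (adjusted p = 0.0116, edgeR quasi-likelihood test). The sizes of these Nos2 differences are not given, since both CIV livers were under the floor, at 0.0557 and 0.0483 CPM. Il1rn rose more in ConA than in ANIT (5.68 ± 1.54, adjusted p = 0.0056) and MDA (5.38 ± 1.47, adjusted p = 0.00531, edgeR quasi-likelihood test). Csf3 against ANIT and MDA and Il6 against ANIT were called too, but Csf3 was at 0 in both CIV mice and both genes at 0 in 3 of 4 ANIT livers, so that these differences have no usable size. The Il1a effect was smaller in ConA than in APAP, at -2.21 ± 0.70 (adjusted p = 0.0216, edgeR quasi-likelihood test). No member was called between the ConA effect and those of CCl4 or GAL, a comparison that rests on the 2 CIV and 2 CIP mice. For Csf3, at 0 in all 4 of these mice, the difference of effects could not be estimated. These 10 calls became 22 without APAP mouse 1, among which the Il1a difference was no longer found.

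The genes whose levels ran most like each member over the 57 livers were taken by Pearson's r of log2(CPM + 1), which is a description since livers of a group share a treatment. For Nos2 they were Duoxa2 and Duox2 (r = 0.99 and 0.985), for Csf3 Socs1 and Cxcl3 (0.974 and 0.968), for Il6 Cxcl5 and Cxcl3 (0.937 and 0.935), and for Il1rn Cd14 and Chmp4b (0.924 and 0.919). Socs3 ran with the metallothioneins Mt2 and Mt1 (0.91 and 0.909), Tnf with the chemokines Ccl7 and Ccl4 (0.879 and 0.874), and Il18bp with Fcgr4 and Themis2 (0.795 and 0.788). Il1b ran with Pik3r5 and Igsf6 (0.747 and 0.725), Il1a with Jag1 and Frmd6 (0.734 and 0.713), and Il10 most with a gene ID without a symbol and Map3k3 (0.776 and 0.772). With group means removed, r stayed at 0.9 for Csf3 with Socs1 and 0.818 for Il1rn with Cd14, and was 0.55 for Socs3 with Mt2.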

How the data were processed

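Bulk mRNA libraries (stranded, single-end) of 57 mouse livers were quantified by the authors. The submitters' processing notes name Salmon 1.6.0, R 4.1.3 and the GRCm39 build. What the authors deposited are estimated counts by gene, which need not be whole. Across 4208 genes with 1 transcript, longer transcripts had lower minimum nonzero values (Spearman rho = -0.944), as in counts corrected for length, so 1 unit is not always 1 read. Symbols were found for 51482 of 54307 gene IDs. Totals were 13826343 to 35075809 per sample, and their counting error covers sequencing only. Samples were grouped by the labels, each as 1 mouse.

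Estimated counts were rounded, filtered with filterByExpr, scaled by TMM and tested with edgeR 4.0.16 (quasi-likelihood, two-sided) in R 4.3.3 with limma 3.58.1, on the 2 groups compared, or on all 10 groups for contrasts between compounds. p-values were adjusted by Benjamini-Hochberg over all genes, with a threshold of 0.05. Standard errors are the log2 change divided by the root of F. Where controls are at or near 0, folds of group means set control values under 3 estimated counts to that floor. Alternatives covered DESeq2 1.42.0, library totals, no low-count filter, replicate block, number range, control subsets, 1 joint fit and leaving out each mouse. The test was checked on simulated data. Named genes are the 10 members, the genes of the lists, and the 2 genes most like each member (mean of at least 1 CPM). Members and lists were chosen with earlier results of these data known. Promoters came from RefSeq on GRCm38.p6, another build than the files'.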

Additional observations from a re-analysis of the deposited data

Results flagged for a closer look

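In 13 of 70 gene and group combinations with 4 to 10 livers, 1 liver lay far from the others, measured as its gap to the nearest liver over the range of the group, where chance gives about 1 in 20. APAP mouse 1 accounted for 6: the ratio was 0.828 for Il1a, 0.807 for Il1rn, 0.769 for Il6, 0.899 for Il10, 0.93 for Csf3 and 0.919 for Nos2. TAA mouse 7 accounted for 2, at 0.728 for Il1b and 0.768 for Il6. In TAA mouse 1 stood apart for Il18bp, at 0.828. In ANIT mouse 1 stood apart for Nos2, at 0.975, and mouse 4 for Il6 and for Csf3, at 1.0 each because the other 3 livers were at 0. The same holds for Csf3 of CCl4 mouse 10, at 1.0, the 1 liver of its group above 0. The effect of TAA on Il18bp differed between mice numbered 1 to 4 and above 4, by -1.61 on the log2 scale in the test of that difference.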

How the results depend on the processing

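Over the alternatives run, the members' values against vehicle kept direction and side of the threshold in 2238 cases, were no longer called in 92, newly called in 57 and changed sign in 72, and the cause was not tested. Against own vehicle, members called with DESeq2 were 3 in APAP and 2 in MDA. With no low-count filter they were 2 in MDA and 1 in GAL. With library totals 4 were called in GAL. In 1 fit of all 10 groups there were 8 in APAP, 1 in CCl4 and 1 in GAL. With the number range as a covariate there were 4 in ANIT and 3 in MDA, without controls numbered above 12 there were 3 in MDA, among mice 1 to 4 alone 2 in ANIT, 3 in APAP, 0 in MDA and 4 in TAA, and among mice above 4 alone 1 in APAP. Against all vehicles, DESeq2 called 3 in APAP, no low-count filter 8 in APAP, library totals 4 in CCl4 and 6 in GAL, 1 joint fit 9 in APAP and 4 in MDA, the range covariate 4 in ANIT, 4 in CCl4 and 5 in GAL, controls numbered above 4 alone 4 in CCl4, and controls up to 12 alone 2 in ANIT. Same-numbered gavage mice did not deviate together in every pair, with correlations from -0.148 in MDA to 0.274 in TAA, and those of GAL with CIP were 0.0377 and 0.0394, so the numbers are not taken as pairs. With a replicate block the members called were 2 in ANIT, 0 in APAP and 2 in MDA against own vehicle, and 3 in ANIT, 2 in APAP and 5 in GAL against all vehicles. No replicate block could be fitted for CCl4 against CIP or ConA against CIV, which share 1 number. Leaving out 1 mouse gave 1 to 2 calls in ANIT, 3 to 5 in APAP, 1 to 3 in MDA, 5 to 7 in TAA, 1 to 3 in CCl4, 0 to 3 in GAL and 5 to 6 in ConA, and against all vehicles 1 to 2, 2 to 5, 1 to 3, 5 to 7, 1 to 3, 2 to 4 and 6 to 7. The vehicle comparisons stayed at 0. Contrasts were refitted only without APAP mouse 1 or TAA mouse 7: within a route 19 calls became 15 and 14, and from the ConA effect 10 became 22 and 12. Direct contrasts of ConA with the other treated groups gave 34, and each pair fitted alone 6. Signs changed as follows. In ANIT against Ctrl, Il1a was -0.15 with library totals, and with the block Il1b was 0.53, Il18bp 0.76 and Tnf 3.53. With the covariate these 3 were 0.51, 0.75 and 3.44, and among mice 1 to 4 Il1b was 0.49 and Il18bp 0.74. Against all vehicles in ANIT, Il1a was -0.21 with library totals, Il1b 0.53, Il18bp 0.76 and Tnf 3.58 with the block, and 0.51, 0.76 and 3.46 with the covariate. Il18bp in APAP was 0.0071 with library totals, 0.54 with the block, 0.18 with the covariate and 0.93 among mice 1 to 4, and against all vehicles 0.49 and 0.14 with block and covariate. Il18bp in MDA was 0.23 with the block, 0.25 with the covariate, 0.0051 without controls above 12, 0.41 among mice 1 to 4 and 0.088 above 4, and against all vehicles 0.19 and 0.22 with block and covariate. Il18bp in TAA was 0.12 with the block, 0.087 with the covariate and 0.98 among mice 1 to 4, and 0.026 against all vehicles with the covariate. In CCl4, Il1b was 0.13 with library totals, and against all vehicles 0.47 with library totals, 0.12 without controls above 12 and 0.0064 in 1 joint fit, while Il18bp was 0.15 with library totals. Il18bp in GAL was 0.68 with library totals. In ConA with library totals Il1a was -0.60 and Il18bp -0.39, and against all vehicles Il1a was -0.081, Il1b -0.38 and Il18bp -0.23. In 1 joint fit Il1a in ConA was -0.022. Leaving out 1 mouse, ANIT against Ctrl ran from -1.16 to 0.0057 for Tnf and -0.38 to 0.25 for Il1a, and Il1a against all vehicles from -0.43 to 0.19. Il18bp ran from -0.18 to 0.011 in MDA and -0.15 to 0.036 in GAL, Il1b in CCl4 from -0.75 to 0.51 and against all vehicles -0.14 to 0.15, and Il1a in ConA from -0.36 to 0.64. CIP against Ctrl ran from -0.47 to 0.73 for Il1b, -0.94 to 0.089 for Il1a, -0.52 to 1.27 for Il6 and -0.13 to 0.31 for Tnf. CIV against Ctrl ran from -4.51 to 0.53 for Il6, -0.0069 to 0.46 for Il18bp, -0.18 to 0.70 for Tnf and -0.03 to 1.00 for Il1a. Fits limited to mice 1 to 4 or to numbers above 4, contrasts without APAP mouse 1 or TAA mouse 7, vehicle comparisons without 1 saline mouse, and list counts under library totals or without those mice were chosen after seeing the data. Depth limits Il6, Il10, Csf3, Nos2 and Tnf, whose 0 values lie at or under 3 estimated counts.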

Other observations

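Genes that supply or compete for the substrate of Nos2 moved with several compounds. Of 7 genes of nitric oxide and arginine metabolism, those called higher and lower were 2 and 0 in ANIT, 1 and 3 in APAP, 2 and 0 in MDA, 1 and 4 in TAA, 0 and 4 in CCl4, 0 and 4 in GAL and 3 and 1 in ConA. Ass1, which makes the precursor of arginine, fell in GAL by 3.30 on the log2 scale, and was lower in APAP (-1.73), TAA (-1.49) and CCl4 (-1.72). Gch1, the first enzyme in making the Nos2 cofactor, was lower in ConA at -1.15 ± 0.21 (adjusted p = 0.00222, edgeR quasi-likelihood test). With library totals ConA had 1 higher and 2 lower.

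Globin transcripts were high after some compounds. Hba-a1 and Hbb-bs rose in TAA (log2 changes of 4.95 and 5.12), ConA (5.91 and 5.66) and APAP (2.51 and 2.82), with reads of Hba-a1 possibly shared with a near-identical copy. Alas2, the erythroid enzyme of haem synthesis in the same marker list, went the other way: it was called lower in TAA at -0.72 (adjusted p = 0.00473) and APAP at -1.34 (adjusted p = 0.000406), and was at -1.12 in ConA (adjusted p = 0.0616, edgeR quasi-likelihood test). In APAP mouse 1, the liver with the highest Csf3, the summed level of the 3 genes was 159.6 CPM, inside the vehicle range of 81.0 to 279 CPM, and mice 8 and 11 had 1697 and 1021 CPM.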
